A study of Mus musculus with 6 samples.

Results

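Solute carriers are the membrane proteins that move amino acids, sugars, metal ions, nucleotide sugars and other small molecules across the plasma membrane and the membranes of the endoplasmic reticulum, Golgi apparatus, lysosomes and vesicles. The acinar cell of the exocrine pancreas makes and secretes protein at a very high rate and depends on the uptake of amino acids, and it also takes up zinc and secretes it with its digestive enzymes. Their mRNAs were compared between control and Ptf1a cKO pancreata, in which the acinar transcription factor gene Ptf1a had been deleted in the adult. Genes were chosen by symbol alone (Slc, a family number, a letter and a member number), with the mitochondrial family Slc25 and the genes Slc9a4 and Slc4a4 set aside. The rule gave 153 of the 10245 genes in the table. Of these, 148 were carriers and 5 only share the letters, namely Slc9a3r1, Slc9a3r2, Slc2a4rg-ps, Slc4a1ap and Slc7a6os.

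The libraries came from the whole pancreas of 3 control mice, labelled Ptf1a(CreER/+), aged 4 months, and 3 Ptf1a cKO mice, labelled Ptf1a(CreER/fl), aged 5 months, with 1 library per mouse. All 6 mice received tamoxifen at 0.25 mg/g by gavage on 3 days and were sacrificed on day 14. CreER sits in the Ptf1a locus and removes its coding function, so the control mice carried 1 working copy of Ptf1a and the recombination was driven by the Ptf1a promoter, which in the adult pancreas is active in acinar cells. Control replicate 1 and Ptf1a cKO replicate 2 were male and the other mice female, and age followed genotype, so the effects of age and genotype cannot be told apart.

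The values are normalized read counts. Whole reads could not be read back from them, nor the depth of a library, so precision rests on the spread between mice. After a level, ± gives the SD over the 3 mice of a group, and after a log2 fold change (Ptf1a cKO over control) it gives the SE of the fit. Ptf1a itself was at 566, 601 and 652 normalized counts in the control mice and at 19.8, 70.1 and 10.2 in the Ptf1a cKO mice (log2 fold change -4.41 ± 0.49 (SE), adjusted p = 3.29e-04, limma, n = 3 per group). Ptf1a cKO replicate 2 kept the most Ptf1a, and its sum of 10 acinar markers was 3446890 against 1965110 and 1115040 in the other Ptf1a cKO mice and 8643330 to 11011400 in the control mice. In whole tissue, fewer cells of a type and less RNA per cell cannot be told apart. Lists of markers of other cells also moved with genotype: 6 of 7 leukocyte markers, 7 of 8 fibroblast and stellate markers, 4 of 7 duct markers and 3 of 4 gastric epithelial markers were higher in the Ptf1a cKO mice, and 7 of 10 acinar markers were lower. The summed leukocyte markers ran from 437 to 708 in the control and from 1149.7 to 2322 in the Ptf1a cKO libraries, the fibroblast markers from 2807 to 3118 and from 5388 to 9915, the duct markers from 3977 to 4901 and from 25847 to 110284, and the gastric markers from 22306 to 26631 and from 185071 to 483948. Of all genes, 17.1% were higher and 16.8% lower. The part of any of the listed cells in the carrier values was not tested.

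Of the 148 carriers, 40 fell and 26 rose in the Ptf1a cKO mice, and 82 did not pass the test (limma, adjusted p under 0.05 over all 10245 genes). Among all genes tested 33.9% were called, 16.8% lower and 17.1% higher. The share of carriers called was 44.6%, with 27.0% lower and 17.6% higher, so the excess over the background was in the lower direction. The median log2 fold change was -0.055 over the carriers and 0.036 over all genes. The values of the groups did not overlap in 84 carriers (56.8%), against 50.8% of all genes, and 65 of the 66 called carriers were among them. Of all 10245 genes, 651 were called higher and 481 lower with a change of at least 2-fold (11.0% in either direction). Of the 148 carriers, 13 were called higher and 22 lower by this rule. These splits follow the scaling of the libraries. A list of 37 genes, called digestive enzymes here, also holds other secretory genes such as Reg1, Sycn, Zg16 and Gp2. Their mRNAs made up 83.7% to 86.1% of the summed normalized counts in the control libraries and 39.5% to 66.2% in the Ptf1a cKO libraries. Scaled to the same total, the median gene moved by 1.48 on the log2 scale and the split became 124 higher and 8 lower. Relative to that median gene, all 40 lower carriers were still below zero and all 26 higher carriers above it, with 15 higher and 27 lower past the threshold. Scaled to the same total without digestive enzymes, which moved the median gene by -0.13, it was 17 higher and 51 lower.

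**Figure D1:**
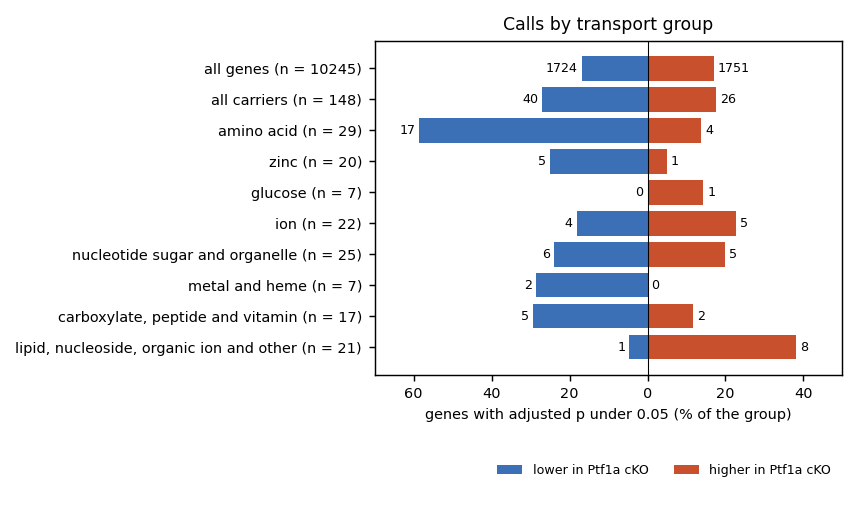
Share of the carriers of each transport group with an adjusted p under 0.05 (horizontal axis, percent of the group), lower in Ptf1a cKO to the left and higher to the right, with the number of genes at each bar and all carriers and all genes at the top. Amino acid carriers were lower in 17 of 29, and carriers of lipids, nucleosides, organic ions and others were higher in 8 of 21.

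The direction went with the level among the carriers, as it did among all genes. Of the 10 carriers with a mean of at least 1000 normalized counts over the 6 libraries, 9 were lower and 0 higher, and the other one was Slc38a5. Among all genes at that level 46.6% were lower. Of the 59 carriers with a mean under 100, 14 were higher and 7 lower, that is 23.7% and 11.9%, where 19.4% of all genes at that level were higher and 8.48% lower. Summed over the 148 carriers, the control mice held 52223 ± 2198 normalized counts (SD, n = 3) and the Ptf1a cKO mice 33638 ± 2680. As a share of the summed normalized counts of all genes they went the other way, from 0.252% to 0.277% in the control libraries to 0.408% to 0.573% in the Ptf1a cKO libraries.

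**Figure D2:**
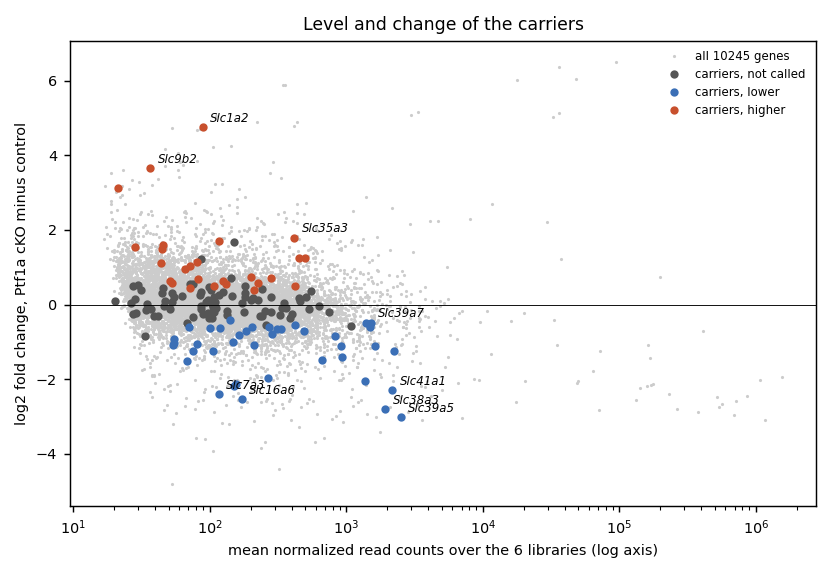
Mean level over the 6 libraries (horizontal axis, normalized read counts, log axis) against the log2 fold change of Ptf1a cKO over control (vertical axis) for all 10245 genes (grey) and the 148 carriers (coloured by call). The called carriers above 1000 normalized counts lie below zero, and the 2 largest rises, Slc1a2 and Slc9b2, lie at means under 100.

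The 29 amino acid carriers moved most often. In the Ptf1a cKO mice 17 fell and 4 rose (58.6% and 13.8%, against 16.8% and 17.1% of all genes), with a median log2 fold change of -0.61. Their summed mRNA went from 21857 ± 1793 to 10618 ± 1958 normalized counts (SD, n = 3), 2.06-fold lower. Scaled to the same total, which moved the median gene by 1.48 on the log2 scale, the split of this group turned to 17 higher and 3 lower, and scaled to the same total without digestive enzymes it was 1 higher and 18 lower. The carriers of this group comprise the exchangers of family 7 with their heavy chain, the sodium-coupled carriers of families 1, 6 and 38, and smaller families.

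Slc38a3, a sodium-coupled carrier of glutamine, histidine and asparagine, was at 3587, 3513 and 2907 normalized counts in the control mice and at 413, 895 and 287 in the Ptf1a cKO mice, with a log2 fold change of -2.80 ± 0.34 (SE) and an adjusted p of 4.94e-04. It was the second most abundant carrier per kilobase of exon in the control mice and the 20th in the Ptf1a cKO mice. Slc6a9, a glycine carrier, was at 2449, 2219 and 1858 and at 424, 964 and 351 normalized counts, a difference of -2.04 ± 0.32 on the log2 scale (adjusted p = 0.00171). In both genes replicate 2 was the highest of the Ptf1a cKO libraries, and the groups did not overlap. Among the other members of family 38, Slc38a10 (log2 fold change -0.61) and the ubiquitous neutral amino acid carrier Slc38a2 (-0.51 ± 0.13, adjusted p = 0.0156) fell, and the lysosomal arginine sensor Slc38a9 rose (0.64 ± 0.19, adjusted p = 0.0293). Slc38a2 lost its call without control replicate 1, control replicate 2 or Ptf1a cKO replicate 1, with an adjusted p of at most 0.0705 in these fits, and Slc38a9 without control replicate 1 or Ptf1a cKO replicate 1 or 3, at most 0.0753. Slc38a5, a glutamine carrier related to Slc38a3, stood at 1644, 1142 and 1139.5 in the control and 821, 1136 and 679 in the Ptf1a cKO mice. The highest Ptf1a cKO mouse lay just under the lowest control mouse, and the test was not passed (log2 fold change -0.58 ± 0.21, adjusted p = 0.0586). With sex as a covariate Slc38a5 passed (adjusted p = 0.00861).

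Cationic amino acids such as arginine and lysine enter cells through the first members of family 7, and all 3 of the family's members in that class fell. Slc7a3 was at 179.7, 206 and 214 normalized counts in the control mice and at 35.1, 36.9 and 32.7 in the Ptf1a cKO mice. The fall of 5.72-fold (log2 fold change -2.40 ± 0.13, adjusted p = 1.65e-05) had the smallest error among the 8 largest falls, and replicate 2 lay close to the other Ptf1a cKO mice. Slc7a1, the widely expressed carrier, was at 939, 1060.2 and 912 against 264, 505 and 295 normalized counts (log2 fold change -1.50 ± 0.22). Slc7a2 was at 231, 315 and 316 against 144, 105 and 149.6 (-1.09 ± 0.17), and here replicate 2 was the lowest of the Ptf1a cKO mice. Slc7a4, a related member, also fell (-0.61 ± 0.12).

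The heterodimeric exchangers pair the heavy chain Slc3a2 with 1 of several light chains. Slc3a2 fell from 2226 ± 267 to 1038 ± 183 normalized counts (SD, n = 3, log2 fold change -1.11 ± 0.16, adjusted p = 0.00112). Of its 5 light chains in the table, 3 fell and 2 did not pass the test. Slc7a8, which exchanges neutral amino acids, was at 3196, 3243 and 3043 in the control and 1253, 1659 and 1143 in the Ptf1a cKO mice (-1.24 ± 0.15, adjusted p = 5.32e-04). Slc7a11, which brings in cystine in exchange for glutamate, was at 103, 128 and 75.8 against 20.5, 36.2 and 47.7 (-1.50 ± 0.29, adjusted p = 0.00444). Slc7a5, the large neutral amino acid exchanger, was called lower (-1.12 ± 0.31, adjusted p = 0.0221), but its groups overlapped, with 942 in Ptf1a cKO replicate 2 against 894 in control replicate 3. It lost the call without control replicate 1 or 2 or without Ptf1a cKO replicate 1 or 3, with an adjusted p of at most 0.0832. Slc7a6 (0.20 ± 0.17) and Slc7a7 (0.21 ± 0.27), whose products export cationic amino acids, had adjusted p-values of 0.379 and 0.575.

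Family 1 held falls and the largest rise among the carriers. Slc1a4, a carrier of alanine, serine and cysteine, was at 409, 479 and 378 in the control and at 87.3, 178 and 72.8 normalized counts in the Ptf1a cKO mice (-1.97 ± 0.28, adjusted p = 0.00104). Slc1a5, which carries glutamine and other neutral amino acids, fell less (-0.84 ± 0.13), and the glutamate carrier Slc1a3 fell from 149 ± 9.62 to 61.2 ± 1.75 normalized counts (SD, n = 3, -1.24 ± 0.12). Slc1a2 encodes the other glutamate carrier of the family in the table, best known from astrocytes. It was listed at 2.35, 2.37 and 4.88 normalized counts in the control mice and at 157, 211 and 158 in the Ptf1a cKO mice, so the means differed 54.7-fold. Its log2 fold change of 4.76 ± 0.26 (adjusted p = 1.64e-05) is on the scale with a pseudocount of 3.41 normalized counts and understates the ratio of such low values. The 3 Ptf1a cKO mice were all above all control mice, and replicate 2 was the highest, unlike its place in most of the rises. Per kilobase of exon Slc1a2 went from the last of the 148 carriers in the control mice to the 113th in the Ptf1a cKO mice.

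**Figure D3:**
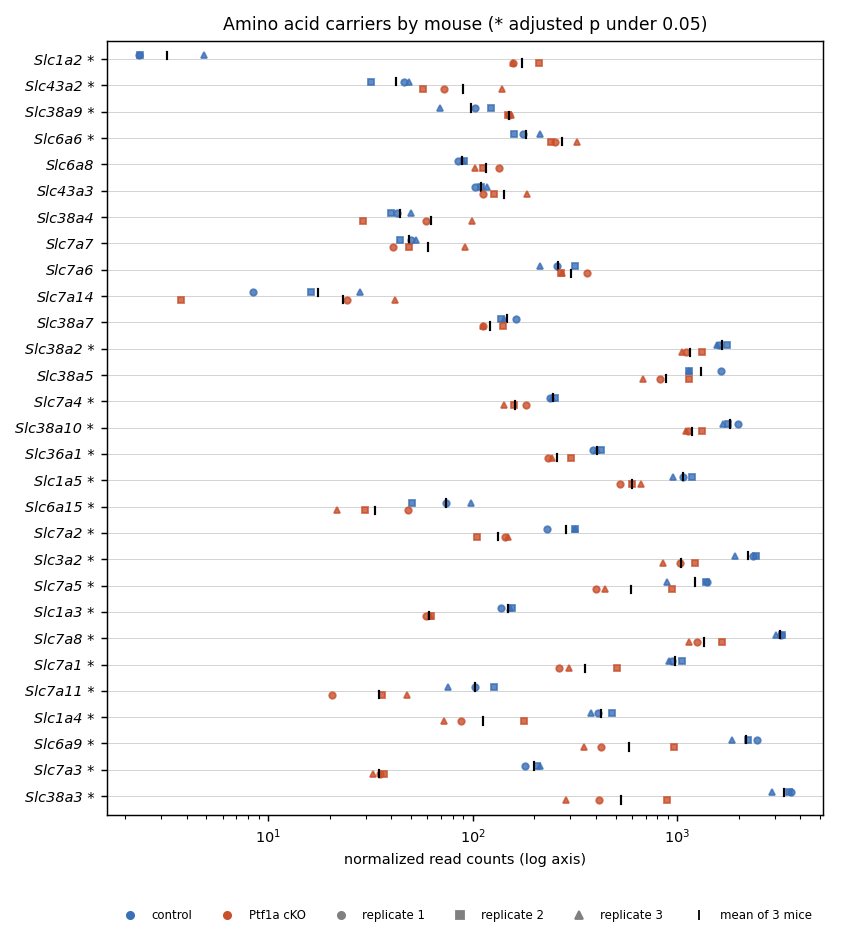
Normalized read counts (horizontal axis, log axis) of the 29 amino acid carriers in each of the 3 control and 3 Ptf1a cKO mice, ordered by log2 fold change, with a bar at the mean of 3 mice and an asterisk at genes with an adjusted p under 0.05. In Slc1a2 the highest control mouse is at 4.88 and the lowest Ptf1a cKO mouse at 157, and in Slc38a3, Slc7a3 and Slc6a9 the control mice lie above all Ptf1a cKO mice.

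Other amino acid carriers moved less. Slc36a1, the lysosomal carrier of small amino acids, fell by 0.65 on the log2 scale. Slc6a15 fell by 1.09 and lost its call without control replicate 1, control replicate 3 or Ptf1a cKO replicate 3 (adjusted p at most 0.0883). The taurine carrier Slc6a6 rose by 0.57 ± 0.15 and lost its call without control replicate 1, control replicate 2 or Ptf1a cKO replicate 3 (at most 0.0768). Slc43a2 rose by 0.95 ± 0.31 with an adjusted p of 0.0400 and kept the call only when Ptf1a cKO replicate 2 was left out (at most 0.130). The creatine carrier Slc6a8 was at 88.2 ± 3.21 and 116 ± 15.9 normalized counts and had an adjusted p of 0.0549. The other 4 amino acid carriers outside the threshold, Slc38a7, Slc7a14, Slc38a4 and Slc43a3, lay between -0.28 and 0.33 on the log2 scale.

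Through the amino acid response, cells that lack amino acids or are under stress in the endoplasmic reticulum raise ATF4 and its targets. Of 10 genes of this response, 5 were lower and 0 higher, where 16.8% of all genes were lower and 17.1% higher. Among all genes with a mean of at least 1000 normalized counts, 46.6% were lower. Atf4, the transcription factor itself, went from 2287 ± 163 to 1137 ± 323 normalized counts (SD, n = 3, log2 fold change -1.04), Eif2ak3, the kinase that senses endoplasmic reticulum stress, differed by -1.10, and the target Chac1 by -2.53. Asns, the asparagine synthetase, did not pass the test (-0.33 ± 0.20, adjusted p = 0.241). Neither did Trib3 (-0.65), Ddit3 (-0.14), Sesn2 (0.10) and Eif2ak4 (0.29). The part of Atf4 in the carrier values was not tested. Slc7a11 and Slc1a4 are known targets of ATF4, and the sequence from 250 bases before to 50 bases after their start (RefSeq, GRCm38.p6) is shown for the letters TGATGNAA, searched on both strands and set in capitals. In Slc7a11 (chr3:50443564-50443863, minus strand) the 2 matches begin at positions -66 and -47 from the start, and in Slc1a4 (chr11:20332664-20332963, minus strand) the match begins at -4.
Slc7a11: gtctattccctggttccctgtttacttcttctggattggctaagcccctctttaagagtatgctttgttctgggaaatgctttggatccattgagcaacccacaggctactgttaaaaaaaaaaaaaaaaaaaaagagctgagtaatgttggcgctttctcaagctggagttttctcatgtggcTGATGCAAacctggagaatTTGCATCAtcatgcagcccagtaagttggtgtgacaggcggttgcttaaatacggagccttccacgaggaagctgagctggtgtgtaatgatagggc
Slc1a4: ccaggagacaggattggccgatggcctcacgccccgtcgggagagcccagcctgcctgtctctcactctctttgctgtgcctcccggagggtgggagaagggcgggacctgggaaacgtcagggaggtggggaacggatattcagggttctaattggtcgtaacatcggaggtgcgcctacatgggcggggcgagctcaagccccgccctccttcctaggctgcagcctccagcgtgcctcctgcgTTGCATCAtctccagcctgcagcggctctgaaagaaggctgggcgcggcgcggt
Of the 10 amino acid carriers that fell and have an entry, these 2 held the letters, as did 4.51% of all 27025 genes and 3.97% of all windows. Over all 110 carriers with an entry, 5 held them (4.55%). These were 3 of 29 that fell, 0 of 23 that rose and 2 of 58 not called, Slc50a1 and Slc7a7. A match is a description of the letters and not a site.

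Zinc carriers fall into 2 families with opposite directions, the exporters of family 30, which move zinc out of the cytosol, and the importers of family 39. In the Ptf1a cKO mice 5 of 20 fell and 1 rose, with a median log2 fold change of -0.097. The shares were 25% and 5%, against 16.8% and 17.1% of all genes. In either direction 30% were called, fewer than the 33.9% of all genes. Their summed mRNA went from 11238 ± 651 to 6336 ± 664 normalized counts (SD, n = 3). Most of this drop was the importer Slc39a5, whose mean went from 4417 to 632. Scaled to the same total, the split of this group turned to 18 higher and 2 lower. Scaled to the same total without digestive enzymes, it was 1 higher and 7 lower.

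Slc39a5, a zinc importer of the basolateral membrane, was the most abundant carrier of the control pancreas per kilobase of exon, at 2055 normalized counts per kb, and ranked 6th in the Ptf1a cKO mice at 294. Its values were 5130.1, 4403 and 3717 normalized counts in the control mice and 431, 1157 and 309 in the Ptf1a cKO mice. The fall of 6.99-fold (log2 fold change -3.02 ± 0.40, adjusted p = 7.45e-04) was the largest among the carriers. Ptf1a cKO replicate 2 was the highest of its group by more than 2-fold, and without it the log2 fold change was -3.57. Slc30a2, which loads zinc into secretory vesicles, was at 296, 231 and 204 against 54.4, 91.6 and 25.2 (-2.18 ± 0.37, adjusted p = 0.00233), again with replicate 2 the highest of the Ptf1a cKO mice and no overlap.

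The other zinc carriers that fell did so by less than 2-fold. Slc30a1, the exporter of the plasma membrane, differed by -0.64 and the vesicular Slc30a4 by -0.61. Slc39a7, which releases zinc from the endoplasmic reticulum and Golgi, was at 1849, 1814 and 1654 in the control and at 1268, 1496 and 1056 in the Ptf1a cKO mice (-0.49 ± 0.15, adjusted p = 0.0299). It became the most abundant carrier per kilobase in the Ptf1a cKO mice, from the 5th place. Slc39a7 lost its call without control replicate 1 or 2 or Ptf1a cKO replicate 1 or 3, with an adjusted p of at most 0.106. The importer Slc39a10 was the only zinc carrier that rose, from 17.5, 25.4 and 19.3 to 71.2, 58.5 and 80.4 normalized counts (1.61 ± 0.22, adjusted p = 8.20e-04). Slc39a14, an importer induced in inflammation, was at 551 ± 57.5 and 509 ± 15.2 (adjusted p = 0.490).

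**Figure D4:**
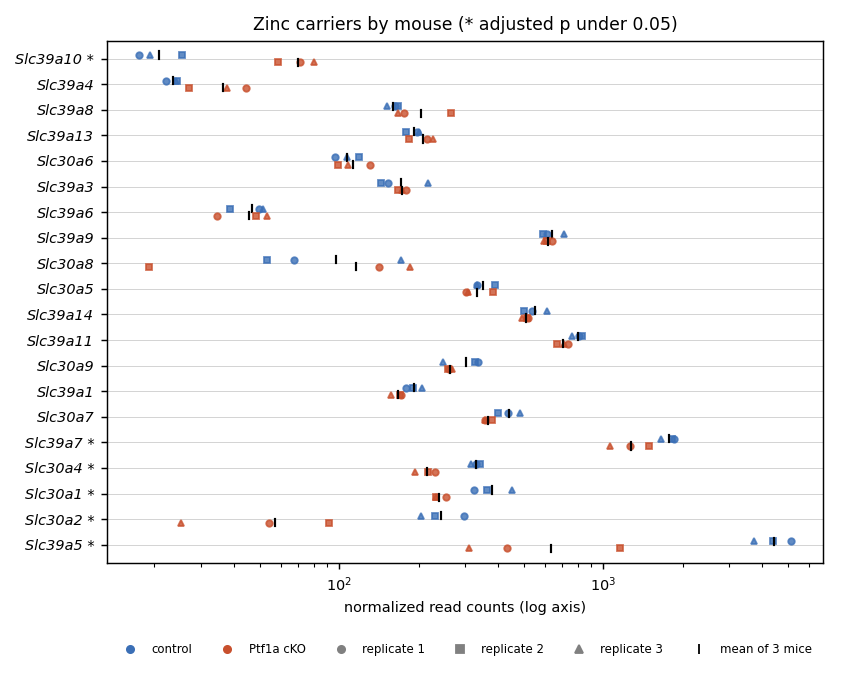
Normalized read counts (horizontal axis, log axis) of the 20 zinc carriers in each of the 3 control and 3 Ptf1a cKO mice, ordered by log2 fold change, with a bar at the mean of 3 mice and an asterisk at genes with an adjusted p under 0.05. Slc39a5 and Slc30a2 are apart by more than 2-fold at the nearest mice, and Slc30a8 has the widest spread within both groups.

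The metallothioneins Mt1 and Mt2, which bind zinc in the cytosol, fell beside these carriers. Mt1 was at 7839 ± 323 and 2762 ± 1751 normalized counts (SD, n = 3, log2 fold change -1.69) and Mt2 at 3477 ± 569 and 1204 ± 693 (-1.67). The zinc-sensing factor Mtf1 was not called (0.29 ± 0.13, adjusted p = 0.122). The window of Slc39a5 (RefSeq, GRCm38.p6, chr10:128401175-128401474, minus strand) is shown because this carrier fell most. The capitals mark a TC-box, TGGGAAA, 1 of the 2 elements that the PTF1 complex binds, with its first base at -224.
Slc39a5: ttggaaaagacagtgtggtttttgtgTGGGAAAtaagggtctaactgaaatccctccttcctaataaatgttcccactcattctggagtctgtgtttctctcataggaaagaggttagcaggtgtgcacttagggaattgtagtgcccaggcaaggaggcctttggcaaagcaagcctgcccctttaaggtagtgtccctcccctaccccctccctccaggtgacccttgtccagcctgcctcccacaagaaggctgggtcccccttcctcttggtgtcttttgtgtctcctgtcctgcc
A TC-box on either strand was found in 3 of the 29 lower carriers with an entry (10.3%), 2 of the 23 higher ones (8.70%) and 9.16% of all genes. The E-box, CANNTG, the other element, was in 18 of 29 (62.1%), 19 of 23 (82.6%) and 75.0%. The Slc39a5 window shown also holds 2 E-boxes, which are not marked, and their spacing from the TC-box was not tested. A second start of Slc39a5 has no TC-box in its window, and no matches of the 3 motifs overlapped in the windows shown. Here too a match is a description of the letters and not a site.

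The islet zinc carrier Slc30a8, which fills insulin granules, varied widely between the mice of each group and was not called. It was at 67.6, 53.1 and 171 in the control and at 142, 19.1 and 185 in the Ptf1a cKO mice (-0.06 ± 0.73, adjusted p = 0.956). The sum of 8 endocrine markers was 12066, 11440 and 42723 and then 27274, 5876 and 33384 in the same mice, so control replicate 3 was high and Ptf1a cKO replicate 2 low in both. None of these 8 markers was called. Slc2a2, the glucose carrier of beta cells, had its lowest value, 14.6, in the same Ptf1a cKO replicate 2, and its log2 fold change of 0.43 ± 0.54 was not past the threshold.

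The families of the hexose carriers were few in members and low. Of 7 members, which include the vitamin carrier Slc5a6, 1 rose and 0 fell, so 14.3% were called against 33.9% of all genes. Their sum was 328 ± 24.2 in the control and 389 ± 85.3 normalized counts in the Ptf1a cKO mice (SD, n = 3). The fructose carrier Slc2a5 was at 25.4, 23.3 and 16.1 against 54.6, 53.0 and 97.9 (log2 fold change 1.49 ± 0.28, adjusted p = 0.00393), with no overlap. The widespread glucose carrier Slc2a1 was at 97.7 ± 25.3 and 81.0 ± 12.6 (-0.24 ± 0.19), Slc2a8 at 87.2 ± 19.2 and 84.3 ± 11.6, and the sodium-coupled Slc5a1 at 26.4 ± 3.49 and 36.1 ± 8.69, and none of the 3 passed.

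Carriers of inorganic ions drive fluid, bicarbonate and proton transport in the pancreas. Of 22, 5 rose and 4 fell (22.7% and 18.2%, against 17.1% and 16.8% of all genes). Their sum hardly moved, at 2924 ± 72.4 and 2890.5 ± 150.4 normalized counts (SD, n = 3). Slc26a6, the apical chloride and bicarbonate exchanger, was at 263, 268 and 229.7 in the control and at 45.0, 83.8 and 44.5 in the Ptf1a cKO mice (-2.13 ± 0.22, adjusted p = 2.55e-04). Slc4a2, the basolateral anion exchanger, was at 423 ± 29.7 and 478 ± 8.31 (0.17 ± 0.11), and Slc12a2, the sodium, potassium and chloride cotransporter, at 346 ± 24.7 and 359.8 ± 34.9 (0.05 ± 0.12). Neither was called, and none of the 6 members of family 12 was.

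The exchangers of family 9 moved in both directions. Slc9b2, a sodium and proton antiporter, was listed at 6.70, 0.109 and 1.03 normalized counts in the control mice and at 102, 34.3 and 76.6 in the Ptf1a cKO mice (3.66 ± 0.55, adjusted p = 0.00141). Its control values were near the bottom of the table, so the fold change depends on the pseudocount. Slc9a8 of the Golgi rose (0.73 ± 0.14), and the endosomal Slc9a9 fell (-0.59 ± 0.16). Slc9a9 lost its call without control replicate 1, control replicate 2 or Ptf1a cKO replicate 1 (adjusted p at most 0.0810). The sodium and calcium exchanger Slc8a1 rose from 45.8 ± 5.49 to 98.7 ± 25.5 normalized counts (SD, n = 3) and the anion exchanger Slc4a3 from 26.9 ± 6.57 to 61.9 ± 9.88. The phosphate carrier Slc20a1 and the mitochondrial sodium and calcium exchanger Slc24a6 each fell by 0.62 on the log2 scale.

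Among 7 carriers of other metals and heme, 2 fell and 0 rose, so 28.6% were called against 33.9% of all genes. Slc41a1, a magnesium carrier, was at 3322, 3748 and 3679 in the control and at 608, 1212 and 514 normalized counts in the Ptf1a cKO mice (-2.30 ± 0.27, adjusted p = 4.54e-04), with replicate 2 again the highest of its group. It ranked 4th among the carriers per kilobase in the control mice and 18th in the Ptf1a cKO mice. The copper carrier Slc31a2 fell by 0.78. Slc40a1, the iron exporter ferroportin, which macrophages express strongly, was at 97.4, 95.6 and 119 against 231, 98.6 and 225, so replicate 2 lay among the control mice (0.72 ± 0.29, adjusted p = 0.0819). With sex as a covariate Slc40a1 passed (adjusted p = 0.0336). The heme carrier Slc48a1 was not called either (0.37 ± 0.16).

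Carriers of the secretory pathway supply nucleotide sugars and other substrates to the endoplasmic reticulum, Golgi and vesicles. Of 25, 5 rose and 6 fell (20% and 24%, against 17.1% and 16.8% of all genes). The sum was 6335 ± 223 and 5955 ± 302 normalized counts (SD, n = 3). Slc35a3, which brings UDP-N-acetylglucosamine into the Golgi, was at 181, 201 and 170.4 in the control and at 624, 554 and 779.8 in the Ptf1a cKO mice (1.80 ± 0.14, adjusted p = 8.44e-05), without overlap. Slc35g1 rose from 291 ± 53.0 to 715 ± 226 normalized counts (1.26 ± 0.22). The UDP-galactose carrier Slc35a2 (0.39), Slc35b3 (0.44), a carrier of the sulfate donor PAPS, and Slc35b4 (0.68) also passed. Slc35b3 lost its call in each of the 6 fits that left out 1 mouse (adjusted p at most 0.119). With sex as a covariate Slc35b3 lost the call as well. Slc35a2 lost its call without control replicate 1, control replicate 2 or Ptf1a cKO replicate 1 (at most 0.0815).

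Slc35c2, a Golgi carrier linked to fucose addition on Notch, was at 1447, 1372 and 1225 in the control and at 503, 624 and 407 normalized counts in the Ptf1a cKO mice (-1.41 ± 0.16, adjusted p = 3.66e-04). Slc35d1 (-0.93), the lysosomal sialic acid exporter Slc17a5 (-0.81), Slc35f5 (-0.70), Slc35e1 (-0.55) and the vesicular ATP carrier Slc17a9 (-0.41) also fell. When 1 mouse was left out, Slc17a9 kept its call only without Ptf1a cKO replicate 2 (adjusted p at most 0.159 in the other fits). With sex as a covariate Slc17a9 lost the call (adjusted p = 0.0619). Slc35b1 of the endoplasmic reticulum was at 470.4 ± 15.9 and 542 ± 49.5 (0.20 ± 0.11) and moved from the 14th to the 3rd place per kilobase. The acetyl-CoA carrier Slc33a1 was at 438 ± 58.0 and 338 ± 24.2 (-0.36 ± 0.13, adjusted p = 0.0541).

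Of 17 carriers of monocarboxylates, peptides and vitamins, 5 fell and 2 rose (29.4% and 11.8%, against 16.8% and 17.1% of all genes). Slc16a6, a monocarboxylate carrier family member, was at 289, 271 and 317 in the control and at 27.6, 89.0 and 41.8 in the Ptf1a cKO mice (-2.55 ± 0.33, adjusted p = 6.34e-04). The lysosomal Slc46a3, the folate carrier Slc19a1, the creatine carrier Slc16a12 and Slc16a5 fell by 1.01 to 1.24 on the log2 scale. Slc16a11 rose from 16.0, 8.39 and 14.4 to 52.8, 34.6 and 44.7 normalized counts (1.55 ± 0.31, adjusted p = 0.00548). The lysosomal peptide and histidine carrier Slc15a4 rose by 0.58 and lost its call without control replicate 1 or 3 or Ptf1a cKO replicate 1 or 3 (at most 0.0993). The thiamine carrier Slc19a2 was at 101, 34.5 and 46.5 against 53.7, 368 and 295, and the peptide carrier Slc15a2 at 47.4, 33.0 and 62.4 against 156, 173 and 50.4. In each of them 2 of the Ptf1a cKO mice were above all control mice and the third was not, and the adjusted p-values were 0.0732 and 0.0503. With sex as a covariate Slc19a2 passed (adjusted p = 0.0341).

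The remaining 21 carriers, of lipids, choline, nucleosides, organic cations and others, had 8 higher and 1 lower and a median log2 fold change of 0.21. The shares were 38.1% and 4.76%, against 17.1% and 16.8% of all genes. Their sum went from 2661 ± 90.5 to 3542 ± 224 normalized counts (SD, n = 3). All 4 members of the choline carrier-like family 44 rose. Slc44a4 was at 48.8, 59.2 and 51.5 in the control and at 195, 154 and 199 in the Ptf1a cKO mice (1.71 ± 0.15, adjusted p = 9.90e-05), and Slc44a3 at 244, 263 and 285 against 687, 496 and 730.2 (1.24 ± 0.16, adjusted p = 5.79e-04). Slc44a2 rose by 0.72 and Slc44a1 by 0.50, and Slc44a1 lost its call without control replicate 1, control replicate 3 or Ptf1a cKO replicate 3 (at most 0.12). In all 4 genes the groups did not overlap.

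Slc22a18 rose from 48.6 ± 7.24 to 113 ± 29.1 normalized counts (1.14 ± 0.21). The fatty acid carrier Slc27a1 was at 353 ± 53.0 and 492 ± 30.6 (0.48 ± 0.13) and lost its call without control replicate 2, Ptf1a cKO replicate 1 or Ptf1a cKO replicate 3 (at most 0.0676). The nucleoside carrier Slc28a3 rose by 0.63 and lost its call without control replicate 2 or Ptf1a cKO replicate 1 or 3 (at most 0.0648). Slc22a23 was the 1 member that fell (-0.70 ± 0.19), and it lost its call without Ptf1a cKO replicate 1 (0.0724).

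**Figure D5:**
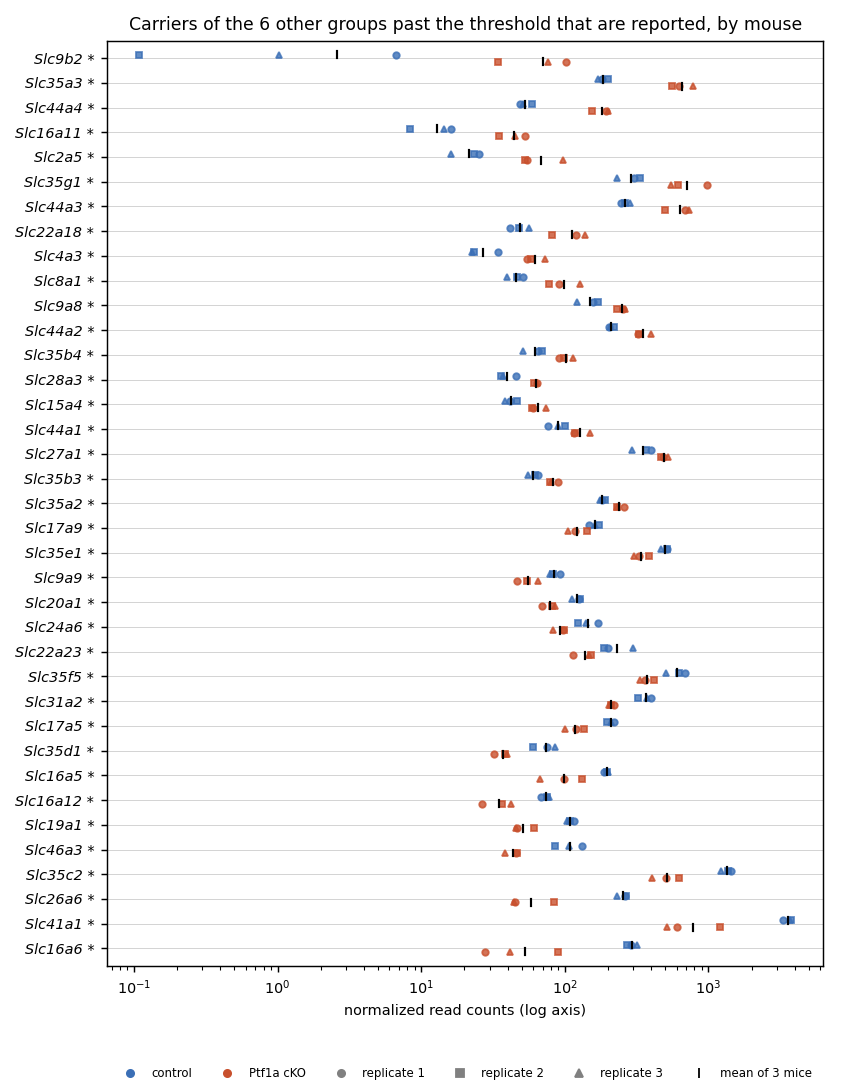
Normalized read counts (horizontal axis, log axis) of the carriers past the threshold outside the amino acid and zinc groups that are reported here, in each of the 3 control and 3 Ptf1a cKO mice, ordered by log2 fold change, with a bar at the mean of 3 mice. The groups do not overlap in any of them, and the control values of Slc9b2 lie under 10 normalized counts.

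Proteins that some carriers need at the membrane were followed as a list of 11 genes, of which 4 were higher and 1 lower. The shares of all genes were 17.1% higher and 16.8% lower, 33.9% in either direction. Tmem27, the partner of amino acid carriers of kidney and intestine, was at 37.2 ± 17.7 and 142 ± 29.6 normalized counts (SD, n = 3, log2 fold change 1.90 ± 0.28). Atp1b1, a subunit of the sodium pump that powers sodium-coupled uptake, was at 309, 517 and 732 in the control and at 5568, 964 and 4891 in the Ptf1a cKO mice (2.60 ± 0.60, adjusted p = 0.0102). Basigin (Bsg), the partner of lactate carriers, was not called (-0.03 ± 0.13). The scaffolds Slc9a3r1 and Slc9a3r2, which are not carriers despite their symbols, moved in opposite directions, 0.40 ± 0.11 and -0.89 ± 0.14.

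The order of the Ptf1a cKO mice was shared by many carriers. In 28 of the 40 that fell (70.0%), replicate 2 was the highest of the 3 Ptf1a cKO libraries, as in 66.7% of all genes that fell. In 20 of the 26 that rose (76.9%), it was the lowest, as in 53.8% of all genes that rose. Without replicate 2, the fall was larger in 34 of the 40 and the rise larger in 25 of the 26. Leaving out the least changed mouse always enlarges a change, so these counts largely follow from that order and are not a separate result. Replicate 2 was the male of its group and kept the most Ptf1a, and the part of either was not tested.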

How the data were processed

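Total RNA of whole pancreas was made by the authors into Illumina TruSeq libraries, and single-end reads were aligned with TopHat2 2.0.4 and Bowtie 0.12.7.0. The submitters' processing notes also name SAMtools 0.1.18.0, HTSeq 0.6.0 and the build mm9. The annotation, the strand setting and any filter on low values are not given in the sources used here, so overlapping and antisense genes could not be told apart. The authors deposited 1 table of normalized read counts, a signal on a common scale across the 6 libraries, for 10245 genes. A further 3 entries that name no gene (75.7% to 82.6% of a library's total) were left out. Most of this was alignments that were not unique, 74.4% to 76.2% in the control and 77.3% to 81.1% in the Ptf1a cKO libraries. The part of this difference in the gene values was not tested.

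Values were divided by 13.6393, a single factor, and log2(value + 0.25) was compared by limma 3.58.1 (lmFit, eBayes with trend, R 4.3.3) without a covariate, with two-sided p-values, Benjamini-Hochberg adjustment over all genes and a threshold of 0.05. The pseudocount equals 3.41 normalized counts, and a filter at a mean of 0.25 removed 0 genes. Log2 fold changes are of log2(value + pseudocount), which understates changes of genes with low values, and values given as N-fold are ratios of group means without a pseudocount. Steps of whole reads matched at most 10.5% of values under 30 normalized counts within 0.02, so the planned read count tests were not run. With 3 mice per group, the smallest two-sided p of an exact permutation test is 0.1. The p-values set the difference between the groups against the spread between these mice. The fit draws that spread toward the spread of genes at a similar level. Age and genotype enter the difference together. Levels per kilobase used union exon lengths of a GRCm38 annotation, and promoter windows from RefSeq matched 110 of 148 carriers. The fit was tested on simulated data.

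Members and lists were chosen with earlier results of these data known. Genes were named by a rule: Slc1a2, the 8 largest rises and falls, the 2 called members with the smallest adjusted p and the 2 most abundant in each group, and well-known carriers, 45 genes in all. Slc43a1 and Slc11a1 of these were not analysed here. The other called carriers, and Slc38a5, Slc30a8, Slc15a2, Slc7a6, Slc7a7 and Slc6a8, were added after their values were seen. Alternatives were other pseudocounts, filters, scalings and models and leaving out each mouse. The results of some genes are not reported here.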

Additional observations from a re-analysis of the deposited data

How the results depend on the processing

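Of 835 values of 85 named carriers under 10 alternatives, 790 kept their direction and side of the threshold, 36 lost it, 8 gained it and 1 reversed. The numbers of carriers higher and lower were 26 and 40. A filter at a mean of 5 left 16 higher, with 0 hexose carriers and 4 carboxylate, peptide and vitamin carriers called, because fewer genes were tested. Scaling to the same total gave 124 higher and 8 lower, and called 20 zinc, 7 glucose, 21 ion, 23 nucleotide sugar and organelle, 7 metal and heme, 13 carboxylate, peptide and vitamin and 21 lipid and other carriers, since it moved the median gene by 1.48. The amino acid carriers called were then 17 higher and 3 lower, against 4 and 17. The same total without digestive enzymes gave 17 higher. Leaving out 1 mouse gave 19 to 31 higher and 34 to 43 lower, and 50 of 66 calls held in all 6 fits, with no change of sign. Without Ptf1a cKO replicate 2, 2 glucose and 4 metal and heme carriers were called. Reversed values were those of uncalled carriers. Slc30a8 was 0.0051 with a pseudocount of 1. Leaving out 1 mouse, Slc12a2 ranged from -0.0067 to 0.13, Slc2a2 from -0.079 to 1.16, Slc2a8 from -0.22 to 0.093, Slc30a8 from -0.64 to 0.90 and Slc7a7 from -0.12 to 0.43. With the replicate block 27 carriers were higher and 41 lower, Slc40a1 (adjusted p = 0.0335) and Slc38a5 (0.0448) gained a call and Slc35b3 (0.0504) lost it. Deviations of same-numbered mice correlated at 0.039, 0.134 and 0.144, so the numbers were not taken to pair the mice. edgeR and DESeq2 on counts were not run, as whole reads could not be recovered. With sex as a covariate Slc19a2 (adjusted p = 0.0341), Slc38a5 (0.00861) and Slc40a1 (0.0336) gained a call and Slc17a9 (0.0619) and Slc35b3 (0.0506) lost it. Whether a change differed by sex could not be judged with 1 male per group.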
